A study of Mus musculus with 4 samples.

Results

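The 9 genes described here are the core of the PI3K, Akt and mTOR pathway: *Pik3cd*, *Pik3cg*, *Pik3r1*, *Akt1*, *Akt2*, *Mtor*, *Rictor*, *Rptor* and *Tsc1*. They were taken by symbol from the 24421 genes listed, each symbol matched 1 listed gene, and none of the 9 was lost to the filter on low levels. RNA was sequenced from FACS-sorted CD69+DP thymocytes, which are CD69+CD4+CD8+ cells that have received a TCR signal, in 2 control and 2 Foxa1/2cKO samples. Control mice were Foxa1fl/flFoxa2fl/fl CD4Cre- and Foxa1/2cKO mice (labelled CoKO) were Foxa1fl/flFoxa2fl/fl CD4Cre+, all adult mice of 6 weeks on a C57BL/6 background, so both groups carried the floxed alleles and only Foxa1/2cKO carried the transgene in which the *Cd4* promoter drives Cre. Controls were littermates, each sample was sorted from different mice, and the methods give 2 mice of each genotype for a sort without saying whether they were pooled. Levels are in FPKM, which corrects fragments for the length of the gene and the depth of the sample and so can be compared between genes.

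Class I PI3K phosphorylates the membrane lipid PIP2 to PIP3, which draws the kinase Akt to the membrane. Akt is then activated by the kinase encoded by *Pdpk1* and by the Rictor-containing complex mTORC2, and relieves the block that the TSC complex places on the Raptor-containing complex mTORC1, a driver of protein synthesis and growth. In T cells the pathway acts downstream of the TCR, CD28 and cytokine receptors, and active Akt keeps the transcription factor Foxo1 out of the nucleus, where Foxo1 otherwise raises genes of T-cell survival and homing such as *Il7r* and *Klf2*.

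For none of the 9 core genes was a difference between Foxa1/2cKO and control detected beyond the spread of the samples. The number of members with an adjusted p under 0.05 was 0 of 9 (limma with Benjamini-Hochberg adjustment over 10776 genes, of which 1, or 0.00928%, passed), and 0 of 9 had an unadjusted p under 0.05 against 4.55% of all genes. limma-voom on the recovered reads also gave 0 of 9 by adjusted p. With 2 samples a group these p-values rest only on the spread between these samples. For each gene limma takes that spread in part from the other genes (2.69 prior against 2 residual degrees of freedom). All 9 fitted log2 fold changes, on log2(FPKM + 1) and as Foxa1/2cKO minus control, were above 0, from 0.05 to 0.32 with a median of 0.09, whereas 51.3% of all genes tested were above 0 and their median was 0.01. The 95% confidence intervals of all 9 members lay within 1 on the log2 scale in either direction, and those of 8 members within 0.5. With 2 samples a group an exact permutation test cannot give a two-sided p under 0.333, so no such test was made.

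The samples were not equally alike. Recovered reads per sample ranged from 10382236 to 14460806. The first principal component, with 65.2% of the variance, set Foxa1/2cKO 2 apart from the other 3 samples, and the log2 difference within a pair had an SD across genes of 0.198 for the controls and 0.405 for Foxa1/2cKO. *Foxa1* and *Foxa2* were listed at 0 in all 4 samples, where a count of 0 allows up to 3 reads, so they do not check the genotypes. DP markers were high in every sample. Their summed FPKM over 8 genes was 2443 and 2488 in the controls against 2522 and 3148 in Foxa1/2cKO. Summed B cell markers over 7 genes were at 85.2 and 56.2 in the controls against 115 and 59.7 in Foxa1/2cKO. Summed myeloid markers over 8 genes were at 33.9 and 32.9 in the controls against 35.4 and 21.7 in Foxa1/2cKO. Summed natural killer cell markers were at 24.9 to 28.8 over 5 genes. The haemoglobin genes *Hba-a1*, *Hba-a2*, *Hbb-bs* and *Hbb-bt* were listed at 0 throughout, with summed erythroid markers at 0.608 to 2.67, and summed thymic epithelial markers were at 8.26 to 11.2.

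The core genes were well covered, with 952 to 5760 reads per gene and sample. In control, *Akt1* had the highest level of the 9 genes and *Tsc1* the lowest, an 8.42-fold span. The order of the control means was *Akt1*, *Pik3cd*, *Akt2*, *Pik3r1*, *Pik3cg*, *Rictor*, *Rptor*, *Mtor* and *Tsc1*, from the 94.1 to the 42.6 percentile of mean FPKM among the genes tested. Neighbours in this order did not overlap in any group, except *Pik3r1* and *Pik3cg*, which overlapped in Foxa1/2cKO.

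**Figure D1:**
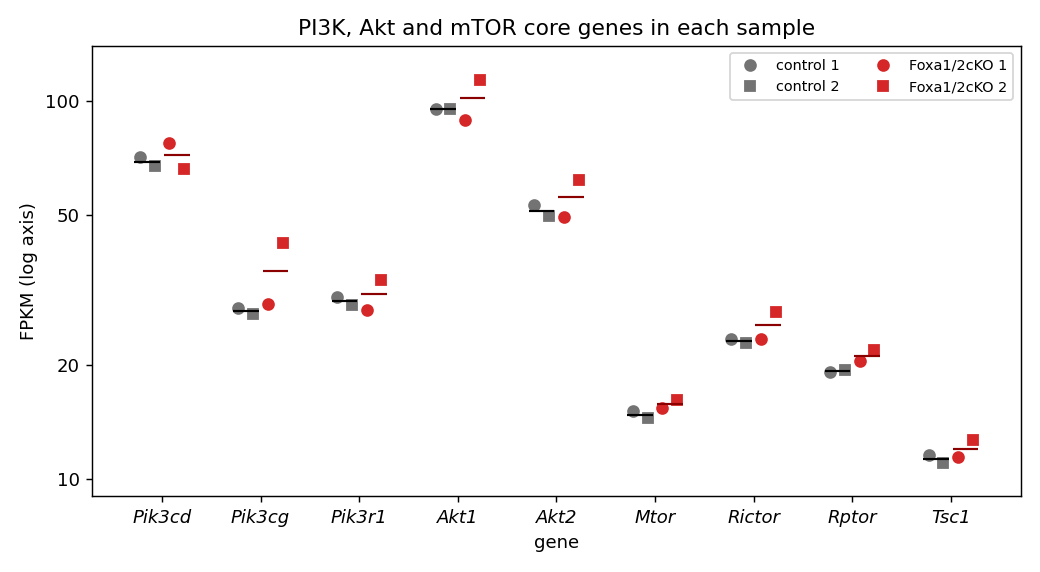
FPKM (log axis) of the 9 core genes, with 1 point per sample (grey: control, red: Foxa1/2cKO, circle: sample 1, square: sample 2) and a line at the mean of each group. Foxa1/2cKO 2 is the highest sample in 8 of the 9 genes, and *Pik3cg* shows the widest gap between the Foxa1/2cKO samples, at 29.0 and 42.1 FPKM.

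*Pik3cd* encodes p110 delta, the catalytic subunit of class I PI3K that predominates in lymphocytes and works downstream of tyrosine kinases. Its locus in mm10 is on chromosome 4 (149649168 to 149702566, minus strand). Control 1 and control 2 had 71.2 and 67.2 FPKM of *Pik3cd*, Foxa1/2cKO 1 had 77.5 and Foxa1/2cKO 2 had 66.3. The 2 Foxa1/2cKO samples lay on either side of the controls, and *Pik3cd* was the only member in which Foxa1/2cKO 2 was not the highest sample. The control mean was 69.2 ± 2.87 and the Foxa1/2cKO mean 71.9 ± 7.94 FPKM (SD, n = 2 samples each), a log2 fold change of 0.05 (95% interval -0.24 to 0.34, limma adjusted p = 0.933).

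*Pik3cg* encodes p110 gamma, the catalytic subunit that responds to G protein-coupled receptors such as chemokine receptors. It lies on chromosome 12 (32173397 to 32208677, minus strand). Its FPKM was 28.3 and 27.3 in the controls and 29.0 in Foxa1/2cKO 1, whereas Foxa1/2cKO 2 had 42.1. The groups did not overlap, but Foxa1/2cKO 1 was close to the controls and nearly all of the distance came from Foxa1/2cKO 2. The log2 fold change of 0.32 was the largest among the members (standard error 0.19, 95% interval -0.17 to 0.82, limma unadjusted p = 0.154, adjusted p = 0.863). It was 0.06 without Foxa1/2cKO 2 and 0.58 without Foxa1/2cKO 1. By size, this fold change stood at the 88.9 percentile of the absolute fold changes of all genes tested.

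*Pik3r1* encodes p85 alpha, the regulatory subunit that holds class IA catalytic subunits stable and brings them to phosphotyrosine (chromosome 13, 101680761 to 101768217, minus strand). Its FPKM was 30.4 and 28.8 in the controls against 28.0 and 33.6 in Foxa1/2cKO, with the controls between the Foxa1/2cKO samples. The fitted log2 fold change was 0.05 (95% interval -0.26 to 0.36, limma adjusted p = 0.943), with the largest p of the 9.

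Within class I PI3K, *Pik3cd* had the largest share of the catalytic FPKM in every sample. Its share of the sum of *Pik3ca*, *Pik3cb*, *Pik3cd* and *Pik3cg* was 59.4% and 58.5% in the controls and 61.0% in Foxa1/2cKO 1, whereas Foxa1/2cKO 2 had 49.7%. The share of *Pik3cg* was 23.6%, 23.8% and 22.9% in the first 3 samples and 31.6% in Foxa1/2cKO 2. The ratio of *Pik3cd* to *Pik3cg* was thus 2.51 and 2.46 in the controls and 2.67 in Foxa1/2cKO 1, whereas Foxa1/2cKO 2 had 1.57, below the other 3 samples. *Pik3r1* held 56.8% to 58.7% of the summed FPKM of *Pik3r1*, *Pik3r2* and *Pik3r3* in all 4 samples.

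*Akt1* and *Akt2* encode the Akt kinases, of which Akt1 is tied to growth and survival and Akt2 to insulin signalling and glucose uptake. *Akt1* (chromosome 12, 112653821 to 112674884, minus strand) had an FPKM of 95.5 and 95.1 in the controls and of 89.4 and 114 in Foxa1/2cKO. *Akt2* (chromosome 7, 27591552 to 27640826, plus strand) had an FPKM of 53.0 and 49.7 in the controls and of 49.4 and 61.9 in Foxa1/2cKO. In both genes Foxa1/2cKO 1 lay below the 2 controls and Foxa1/2cKO 2 above them. The log2 fold changes were 0.08 for *Akt1* (95% interval -0.28 to 0.45, limma adjusted p = 0.914) and 0.11 for *Akt2* (95% interval -0.25 to 0.46, limma adjusted p = 0.893), and both were below 0 without Foxa1/2cKO 2, at -0.09 and -0.05.

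The balance of the Akt kinases varied little between samples. The ratio of *Akt1* to *Akt2* was 1.80 and 1.92 in the controls against 1.81 and 1.85 in Foxa1/2cKO, so both Foxa1/2cKO samples lay between the controls. Of the 50-base stretches in the longest annotated transcript of *Akt2*, 16.0% also occur in the pseudogene *Akt2-ps*, so reads from these stretches could come from either. The same share was 0.596% or less in the other 8 members.

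*Mtor* encodes the kinase shared by mTORC1 and mTORC2, and *Rptor* (Raptor) and *Rictor* encode the scaffolds that define each complex. *Mtor* (chromosome 4, 148448582 to 148557685, plus strand) was at 15.1 and 14.5 FPKM in the controls and at 15.4 and 16.2 in Foxa1/2cKO. *Rptor* (chromosome 11, 119602905 to 119899591, plus strand) was at 19.2 and 19.4 in the controls and at 20.5 and 21.9 in Foxa1/2cKO. *Rictor* (chromosome 15, 6708349 to 6800401, plus strand) was at 23.5 and 22.9 in the controls and at 23.5 and 27.6 in Foxa1/2cKO. In all 3 genes the groups were separated with Foxa1/2cKO higher, by a narrow margin in *Mtor* and *Rictor*.

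The fitted differences of these 3 genes were small. *Rptor* had the second smallest p among the members, with a log2 fold change of 0.13 (standard error 0.09, 95% interval -0.10 to 0.36, limma unadjusted p = 0.208, adjusted p = 0.863). Its controls were 19.3 ± 0.124 and its Foxa1/2cKO samples 21.2 ± 0.945 FPKM (SD, n = 2 each), and its fold change stayed between 0.08 and 0.17 whichever sample was left out. *Rictor* had a log2 fold change of 0.13 (95% interval -0.16 to 0.42) that was 0.02 without Foxa1/2cKO 2. *Mtor* had a log2 fold change of 0.09 (95% interval -0.15 to 0.33), with a range of 0.05 to 0.13 when samples were left out in turn. The ratio of *Rictor* to *Rptor*, per length, was 1.22 and 1.18 in the controls against 1.15 and 1.26 in Foxa1/2cKO, with the controls between the Foxa1/2cKO samples.

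*Tsc1* encodes hamartin, which stabilizes the TSC complex that restrains mTORC1 through the small GTPase Rheb. On chromosome 2 (28640993 to 28691172, plus strand), it was the member with the lowest level, at 11.6 and 11.0 FPKM in the controls against 11.4 and 12.7 in Foxa1/2cKO. Foxa1/2cKO 1 lay between the controls. Its log2 fold change was 0.08 (95% interval -0.19 to 0.35, limma adjusted p = 0.893) and 0.01 without Foxa1/2cKO 2. The ratio of *Tsc1* to *Tsc2*, its partner in the complex, was 0.504 and 0.512 in the controls against 0.556 and 0.537 in Foxa1/2cKO. In this ratio the groups were separated, but it was chosen after its values were seen.

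**Figure D2:**
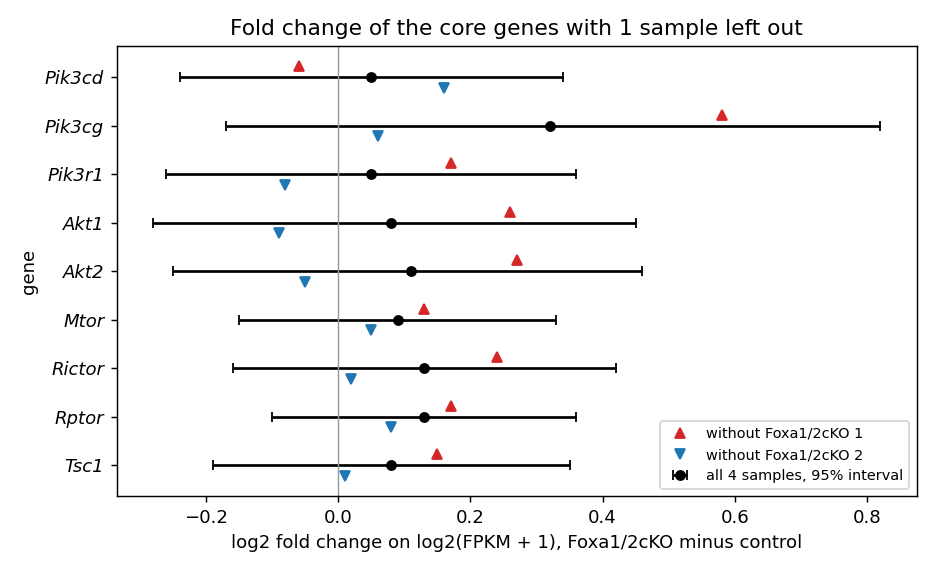
Log2 fold change of each core gene on log2(FPKM + 1), Foxa1/2cKO minus control, with its 95% interval from limma (black), and the value without Foxa1/2cKO 1 (red triangle) or without Foxa1/2cKO 2 (blue triangle). Every interval holds 0, and the 2 values with a sample left out lie on opposite sides of 0 for *Pik3cd*, *Pik3r1*, *Akt1* and *Akt2*.

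Across the members, neither Foxa1/2cKO sample reached down to the controls in 4 of 9 genes (*Pik3cg*, *Mtor*, *Rictor* and *Rptor*), or 44.4%, and the reverse held in 0, whereas 18.9% of all genes tested were separated upwards and 17.8% downwards. Foxa1/2cKO 2 was the highest of the 4 samples in 8 of the 9 members, against 40.5% of all genes. It was also the sample farthest from the mean of the other 3 in 8 of 9, against 52.1%. Foxa1/2cKO 1 lay above both controls in 5 members, below both in 3 and between them in 1. Leaving out a Foxa1/2cKO sample changed the calls. Without Foxa1/2cKO 1, limma passed 3 of 9 members by adjusted p (*Pik3cg*, *Akt1* and *Akt2*) and 5 of 9 by an unadjusted p under 0.05, where 23.7% and 39.2% of all genes passed. Without Foxa1/2cKO 2 it passed 0 of 9 and 1 of 9 (*Pik3cd*), where 0.176% and 17.5% of all genes passed. The lone Foxa1/2cKO sample was in each case assumed to vary like the controls. The median member stood 0.17 above the control mean in Foxa1/2cKO 2 and 0.02 above it in Foxa1/2cKO 1, on the log2 scale, while over all genes these medians were 0.02 and -0.01.

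The members are long genes, with a median length of 7022 bases against 2750 over all genes tested. Across genes, length and log2 fold change had a Spearman rho of 0.145. With a correction for length, the log2 fold change of *Pik3r1* went from 0.05 to 0.00, that of *Pik3cd* from 0.05 to 0.03 and that of *Tsc1* from 0.08 to 0.03. That of *Mtor* went from 0.09 to 0.04, that of *Rictor* from 0.13 to 0.07 and that of *Rptor* from 0.13 to 0.09. For *Akt2* it went from 0.11 to 0.10 and for *Pik3cg* from 0.32 to 0.28. For *Akt1*, the shortest member at 2690 bases, it went from 0.08 to 0.09. At this rounding 8 of the 9 corrected values were above 0. The part of length in the shared direction was not tested further.

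The genes whose pattern over the 4 samples was closest to that of *Pik3cg*, the member with the smallest p, were *Sun2*, *Eva1b* and *Camk4*. Their Euclidean distances to it on log2(FPKM + 1), each gene centred on its mean, were 0.0202, 0.0233 and 0.0301. *Camk4*, a calcium-dependent kinase, was at 50.3 and 48.2 FPKM in the controls and 50.3 in Foxa1/2cKO 1, whereas Foxa1/2cKO 2 had 74.8. In all, 54 genes lay within a distance of 0.1 of *Pik3cg*.

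Promoters of the members were searched for the forkhead core motifs TGTTTAC and TATTTAC on both strands, since Foxa1 and Foxa2 are forkhead factors. RefSeq promoters (GRCm38.p6, 250 bases before to 50 after each start) were found for all 9 members, 17 in all. The motif TGTTTAC was in 2 of the 17, against 3.65% of 32851 promoters, and TATTTAC in 1, against 3.04%. The matches are shown 5′ to 3′ on the strand of the gene, with the motif or its reverse complement in capitals, because they are the matches to these 2 motifs in the 17 promoters, and other forkhead variants were not searched.
*Akt1*, chr12:112674993-112675092, minus strand: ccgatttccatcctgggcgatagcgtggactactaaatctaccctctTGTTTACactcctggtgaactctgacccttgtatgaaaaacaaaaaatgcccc
*Akt2*, chr7:27591303-27591402, plus strand: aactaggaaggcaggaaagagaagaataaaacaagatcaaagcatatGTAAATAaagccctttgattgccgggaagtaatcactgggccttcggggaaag
*Pik3cg*, chr12:32208545-32208574, minus strand: ttttttcctaaaGTAAACAaatgatcctcc

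The *Akt1* letters begin 161 bases and the *Akt2* letters 202 bases before an annotated start, with no annotated exon in the window. The *Pik3cg* letters begin 92 bases before the more downstream of its starts, and an annotated exon of the gene overlaps the 30-base window shown. A match describes these letters only, and binding was not measured here. None of these 3 genes passed the test.

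The rest of the pathway was read from 11 lists of 110 further genes, of which 105 passed the filter. The number with an adjusted p under 0.05 was 0 of 105 (limma, lowest adjusted p = 0.863). An unadjusted p under 0.05 was found for 3 higher genes, among them *Sesn1* and *Hif1a*, and 0 lower ones, while 2.39% and 2.15% of all genes tested had one. The median log2 fold change of the 105 was 0.02, and in 102 of them the absolute value was under 0.5. The groups were separated with Foxa1/2cKO higher in 21 genes and lower in 13, in sum 32.4%, near the 36.7% of all genes.

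**Figure D3:**
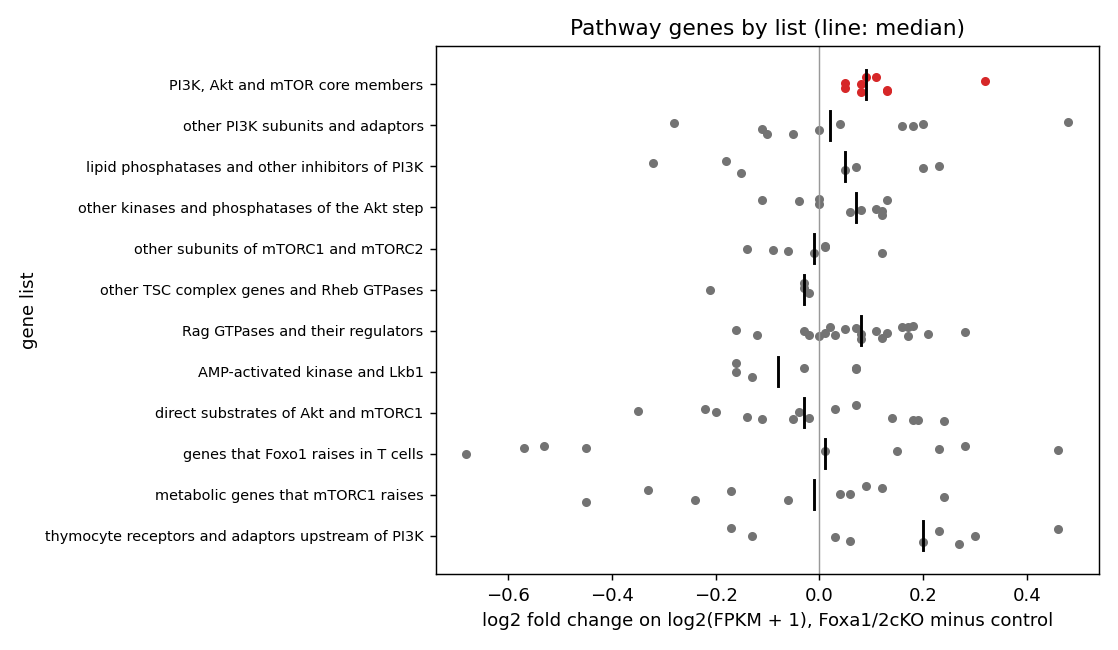
Log2 fold change on log2(FPKM + 1), Foxa1/2cKO minus control, of each tested gene (points) in the core (red) and in the 11 other lists (grey), with the median of each list as a line. The medians of the lists run from -0.08 to 0.20, and the lowest single value, -0.68, is that of *Il7r* among the genes that Foxo1 raises.

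Of the other PI3K subunits and adaptors 10 of 11 were tested, 0 passed, and their median log2 fold change was 0.02. The most abundant was *Pik3r5*, which encodes the p101 partner of p110 gamma, at 36.0 and 34.6 FPKM in the controls against 29.9 and 35.7 in Foxa1/2cKO. The ratio of *Pik3cg* to *Pik3r5* was 0.786 and 0.789 in the controls and 0.972 in Foxa1/2cKO 1, whereas Foxa1/2cKO 2 had 1.18, a ratio also chosen after its values were seen. The largest fold change was in *Pik3ap1*, an adaptor of PI3K in B cells and myeloid cells, with a log2 fold change of 0.48 (95% interval -0.29 to 1.25).

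*Pik3ap1* followed the B cell markers. Its FPKM was 2.66 and 1.52 in the controls against 4.21 and 2.45 in Foxa1/2cKO, and the summed B cell markers were 85.2 and 56.2 in the controls against 115 and 59.7 in Foxa1/2cKO. The part of B cells in these values was not tested, and more cells of a type and more RNA per cell cannot be told apart in such samples. *Pik3cd* was also highest in Foxa1/2cKO 1, at 77.5 FPKM, where the highest B cell marker, *Cd79b*, had a mean of 21.3 FPKM over the samples.

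Among the 7 inhibitors of PI3K, 0 passed and the median log2 fold change was 0.05. *Inpp5d*, which encodes the lipid phosphatase SHIP1 and was the most abundant, was at 54.6 and 51.5 FPKM in the controls against 49.7 and 61.0 in Foxa1/2cKO. *Inppl1* had the largest fold change, -0.32 (95% interval -1.08 to 0.44), and its level was near the filter.

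At the Akt step 10 other kinases and phosphatases were tested, 0 passed, and every fold change lay between -0.11 and 0.13. The largest and the most abundant was *Ppp2ca*, a catalytic subunit of the phosphatase PP2A, at 185 and 191 FPKM in the controls against 189 and 224 in Foxa1/2cKO. Of the other subunits of mTORC1 and mTORC2, 7 of 8 were tested and 0 passed, with a median of -0.01. *Mapkap1*, a subunit of mTORC2 also known as Sin1, was at 21.6 and 22.8 FPKM in the controls and at 21.4 and 21.1 in Foxa1/2cKO, and *Telo2*, which helps to assemble mTOR, had the largest fold change of -0.14 (95% interval -0.47 to 0.19).

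All 4 other genes of the TSC complex and Rheb had fold changes below 0, from -0.21 to -0.02, and 0 passed. *Rheb*, the GTPase that activates mTORC1, was at 39.6 and 38.7 FPKM in the controls and at 35.4 and 41.7 in Foxa1/2cKO. The largest fold change was in *Tbc1d7*, a TSC subunit, at -0.21 (95% interval -0.71 to 0.30). For the AMP-activated kinase and Lkb1, which restrain mTORC1 when energy is low, 6 of 7 genes were tested, 0 passed and the median was -0.08. *Prkag1* was at 55.3 to 58.2 FPKM in the 4 samples, and *Prkag2* had the largest fold change, -0.16 (95% interval -0.49 to 0.16).

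The Rag GTPases and their regulators, which report amino acids to mTORC1, were tested in 21 of 22 genes, and 0 passed. Their median was 0.08, with 17 genes above 0 and 4 below. *Sesn1*, which encodes a sestrin that restrains mTORC1 and is itself raised by Foxo factors, was at 27.5 and 29.0 FPKM in the controls against 33.2 and 35.9 in Foxa1/2cKO. Its groups did not overlap and its log2 fold change was 0.28 (95% interval 0.04 to 0.52, limma unadjusted p = 0.0297, adjusted p = 0.863). *Lamtor2*, a subunit of the Ragulator scaffold and the most abundant of the list, had a fold change of -0.16 (95% interval -0.41 to 0.09).

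Direct substrates of Akt and mTORC1 were tested in 14 of 14 genes, 0 passed, and the median was -0.03. *Foxo1* had the largest fold change, with an FPKM of 33.0 and 34.0 in the controls and 32.1 in Foxa1/2cKO 1, whereas Foxa1/2cKO 2 had 21.2. Foxa1/2cKO 1 was again close to the controls, and the log2 fold change of -0.35 (95% interval -0.88 to 0.19, limma adjusted p = 0.863) rested on Foxa1/2cKO 2. *Rps6*, a ribosomal protein phosphorylated downstream of mTORC1, was at 179 and 192 FPKM in the controls and 192 in Foxa1/2cKO 1, whereas Foxa1/2cKO 2 had 148.

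The 9 genes that Foxo1 raises in T cells were all tested and 0 passed, with a median of 0.01 but a wide range. *Il7r*, the interleukin 7 receptor, was at 33.7 and 44.1 FPKM in the controls and 41.5 in Foxa1/2cKO 1, whereas Foxa1/2cKO 2 had 13.4, a log2 fold change of -0.68 (95% interval -2.07 to 0.71) and of 0.10 without Foxa1/2cKO 2. *Ccr7*, a homing receptor of mature thymocytes, was at 82.5 and 91.7 FPKM in the controls and 86.9 in Foxa1/2cKO 1, whereas Foxa1/2cKO 2 had 39.1. *Klf2* and *S1pr1*, which direct thymic egress and are named after their values were seen, were at 17.0 and 6.40 FPKM in Foxa1/2cKO 2, below the 37.0 to 43.4 and 12.3 to 13.9 of the other 3 samples. These 4 genes were thus low in 1 sample, while Foxa1/2cKO 1 lay within or just beside the controls.

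**Figure D4:**
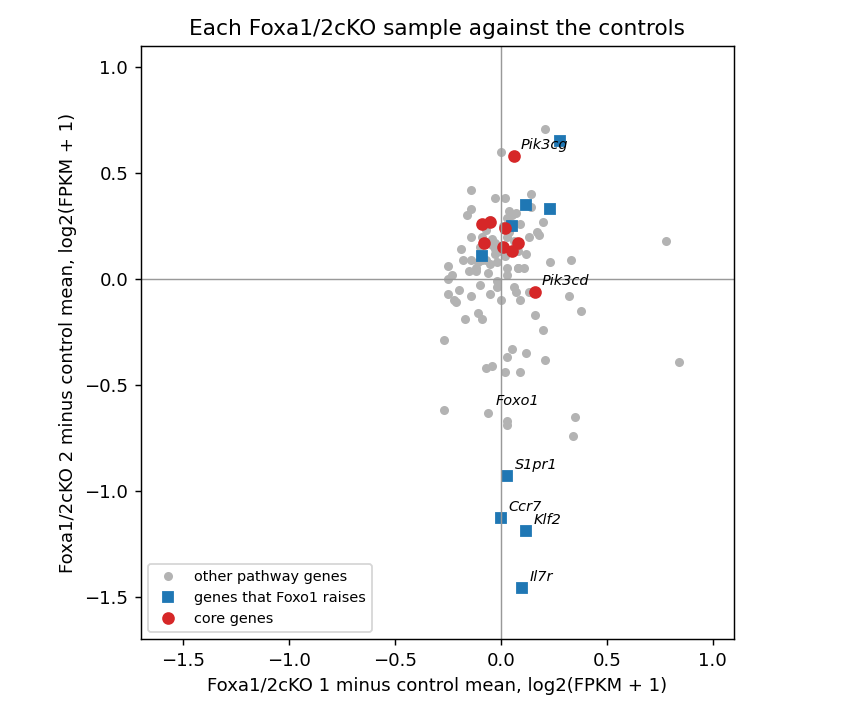
Difference of Foxa1/2cKO 1 (x axis) and of Foxa1/2cKO 2 (y axis) from the control mean on log2(FPKM + 1), with both axes on the same scale and sharing the 2 controls, for the core genes (red), the genes that Foxo1 raises (blue squares) and the other pathway genes (grey). *Il7r*, *Klf2*, *Ccr7* and *S1pr1* are far below 0 only in Foxa1/2cKO 2, while *Pik3cg*, at 0.06 and 0.58, is the core gene farthest above it.

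Of the 10 metabolic genes that mTORC1 raises, all were tested, 0 passed and the median was -0.01. *Hif1a*, a regulator of glycolysis, was at 32.7 and 32.4 FPKM in the controls and at 37.6 and 39.5 in the Foxa1/2cKO pair, for a log2 fold change of 0.24 (95% interval 0.02 to 0.45, limma unadjusted p = 0.0384, adjusted p = 0.863). *Ldha*, the most abundant of the list, was at 257 in each control against 241 and 252 in Foxa1/2cKO. *Ppargc1b*, a coactivator of mitochondrial genes, had the largest fold change, -0.45 (95% interval -0.90 to 0.01).

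Upstream of PI3K, 9 of 10 receptors and adaptors were tested, 0 passed, and the median of 0.20 was the highest of the lists, with 0.02 for Foxa1/2cKO 1 and 0.20 for Foxa1/2cKO 2 taken alone. *Themis*, an adaptor of TCR signalling, had the largest fold change, 0.46 (95% interval -0.02 to 0.94), with 77.7 and 76.6 FPKM in the controls against 89.4 and 127 in Foxa1/2cKO. *Lat*, the TCR scaffold and the most abundant, was at 578 and 591 FPKM in the controls against 530 and 671 in Foxa1/2cKO, on either side of them.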

How the data were processed

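RNA from 4 sorted CD69+DP samples was sequenced. The authors aligned the reads to mm10 (RefSeq annotation), and HTSeq in its union mode gave counts; TopHat, Picard and DESeq2 stand in the submitters' processing notes. The deposited values are FPKM per gene and sample. The header does not name the unit, which was read from the values, and the step that made them is not given in the sources used here.

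Since the 4 values of a gene are multiples of what 1 read is worth, whole reads could be recovered (tolerance 0.01) for 100% of the 16069 genes above 0. The depth was set as the largest total at which at least 95% of gene lengths came out whole, 98.3% of the 60 genes checked. Fold changes were fitted with limma 3.58.1 in R 4.3.3 on log2(FPKM + 1) with a mean-variance trend, for the 10776 genes that reached 1 FPKM in 2 or more samples, with Benjamini-Hochberg adjustment at 0.05 over all of them. The pseudocount of 1 understates changes of low genes. limma was checked on simulated data in which both groups had the same spread. This check does not show how limma performs with the wider spread of the Foxa1/2cKO pair. Two-sided 95% intervals are those of limma. That the 2 samples of a group are separate libraries was checked by chi-square, which gave 3.30 per degree of freedom for the control pair and 24.9 for the Foxa1/2cKO pair.

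Named genes are the members, *Foxa1* and *Foxa2*, and for each list the genes with an unadjusted p under 0.05, the largest change and the highest level, plus the 3 genes most like the member with the smallest p. *Sesn1* and *Pik3ip1* are in 2 lists each. The members and lists were chosen with earlier results of these data known. Coordinates are those of RefSeq on GRCm38.p6, the assembly of mm10, and overlaps were read from GENCODE M21. Tables and plots were made in Python 3.11.15 with pandas 2.3.3 and matplotlib 3.10.9. Protein levels, phosphorylation and exon usage were not analysed here. Some genes of the lists are not reported here by name.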

Additional observations from a re-analysis of the deposited data

How the results depend on the processing

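The number of members with an adjusted p under 0.05 was 0 in every fit with all 4 samples, and with a sample left out it ranged from 0 to 3. The 3 came without Foxa1/2cKO 1, when *Pik3cg* (adjusted p = 0.00346 from limma), *Akt1* (0.0208) and *Akt2* (0.0359) passed. That fit assumes that Foxa1/2cKO 2 alone varies like the controls, and it passed 23.7% of all genes, 2559 in number. For the other pathway genes the count was 0 with all samples and ranged from 0 to 31 with a sample left out, and over all genes it ranged from 0 to 2559. Over all genes the 1 call was lost, leaving 0, with a pseudocount of 0.1, with no filter on low values, with limma-voom on recovered reads and with scaling to all recovered reads, which was chosen after seeing the data. In these 4 settings between 477 and 802 genes had an unadjusted p under 0.05. With upper-quartile scaling, length correction and the replicate block it stayed at 1.

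Between the settings with all samples every member kept its sign or was at 0.00, from 0.00 for *Pik3r1* with length correction to 0.33 for *Pik3cg*. Of the named genes only *Lat* turned, to -0.01 with scaling to all recovered reads. With a sample left out, 13 of 32 named genes turned, 9 of them without Foxa1/2cKO 2, among them *Pik3r1* (range -0.08 to 0.17), *Akt1* (-0.09 to 0.26) and *Akt2* (-0.05 to 0.27), and *Pik3cd* (-0.06 to 0.16) turned without Foxa1/2cKO 1. The others were *Pik3r5* (-0.23 to 0.02), *Inppl1* (-0.67 to 0.03), *Inpp5d* (-0.09 to 0.20), *Tbc1d7* (-0.44 to 0.02), *Rheb* (-0.14 to 0.09), *Prkag1* (-0.06 to 0.01), *Rps6* (-0.33 to 0.05), *Il7r* (-1.46 to 0.10) and *Lat* (-0.14 to 0.20). The fit with the replicate number as a block left 1 call over all genes and 0 among the members, with a log2 fold change of 0.32 for *Pik3cg*, and it changed no call. The labels do not say what a shared number stands for, and deviations of same-numbered samples had a correlation of -0.0587. Each member had at least 952 reads in each sample, and the number of samples limits the precision of the fold changes.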
